A study of Homo sapiens with 27 samples.

Results

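TNS4, TM4SF1 and ANO1 are 3 of the 17687 genes measured in a study of colorectal cancer cells under repeated attack by natural killer (NK) cells. They were picked as surface and focal adhesion genes whose change after the challenge differed in sign or size between cell lines. They were thus chosen by the measured difference between resistant and parental cells, which is given below as a description with no test. Each gene was read by a single probe set.

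The study hybridised 27 arrays with RNA of the human colorectal cancer lines LIM1215, SW48 and Caco2, in 9 groups of 3. Resistant cells had survived 20 cycles with NK-CD16 cells (NK cells bearing CD16, a receptor for the stem of antibodies) and cetuximab, the EGFR antibody that flags a tumour cell for NK attack, given at 1 μg/ml. Withdrawal cells were resistant cells kept for 20 more cycles without treatment. Parental cells were the original line, grown from 1 clone, so each line stands for a single clone, and no group was given NK cells without cetuximab or cetuximab without NK cells. The labels do not say that replicates were separate cultures, so the p-values measure only the spread between these arrays, which may be technical. In such bulk RNA, fewer cells of a type and less RNA per cell cannot be told apart.

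TNS4, also called CTEN, is a short tensin of focal adhesions, the sites where integrins tie the cytoskeleton to the matrix. It lacks the actin-binding part of its relatives TNS1 to TNS3, binds the tail of integrin beta 1 and the tumour suppressor DLC1, and is induced by EGF in mammary epithelial cells. TM4SF1 is a small surface protein that crosses the membrane several times, the founder of the L6 family, abundant in endothelium and in many carcinomas, where it is linked to cell protrusions and migration. ANO1, or TMEM16A, is the calcium-activated chloride channel of secretory epithelium, smooth muscle and interstitial cells of Cajal; it lies in the 11q13 region that is amplified in some carcinomas.

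Promoters of TM4SF1 and ANO1 are shown because these were the genes with a matched RefSeq promoter. They are the 250 bases before the start site of each gene's RefSeq promoter in GRCh38.p14, on the gene's strand. They lie at chr3:149377650-149377899 (minus strand) and chr11:69985657-69985906 (plus strand). The ANO1 window lies inside the annotated span of that gene (chr11:69965997-70189530), so it does not precede the gene's outermost start. RefSeq promoters were matched for 2 of the 3 genes; TNS4 was the other. Capitals mark matches, on either strand, to the letters GGAATG (TEAD), GGGCGG (GC box) and CCAAT.
TM4SF1: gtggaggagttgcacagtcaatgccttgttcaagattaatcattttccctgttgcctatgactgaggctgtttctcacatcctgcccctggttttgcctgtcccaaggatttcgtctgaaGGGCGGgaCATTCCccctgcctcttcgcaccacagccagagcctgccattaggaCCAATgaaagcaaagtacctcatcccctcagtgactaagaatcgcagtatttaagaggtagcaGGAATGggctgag
ANO1: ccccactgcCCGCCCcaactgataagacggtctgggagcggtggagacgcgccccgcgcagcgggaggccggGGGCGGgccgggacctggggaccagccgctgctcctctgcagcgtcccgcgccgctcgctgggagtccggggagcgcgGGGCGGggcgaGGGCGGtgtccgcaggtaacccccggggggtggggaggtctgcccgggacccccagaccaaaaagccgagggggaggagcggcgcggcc

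The TM4SF1 promoter had 50.8% GC and 4 CpG, against 78% GC and 30 CpG for ANO1, where the median over 27305 RefSeq promoters was 58% GC. GGAATG occurred at 2 places in the TM4SF1 window, starting at -122 on the opposite strand and at -13 on the gene's strand, counted from the start site. The same letters occurred in 11.9% of all promoters of this length and not in the ANO1 window. GGGCGG occurred once upstream of TM4SF1, at -130, and was found in 42.3% of all promoters. In the ANO1 window it occurred at 4 places, starting at -241, -178, -100 and -89. CCAAT, at -76 of TM4SF1, was found in 33% of all promoters. Neither window held TGANTCA (AP-1, 6.6% of promoters), TATAAA (11.1%) or TGACGTCA (CRE, 1.77%), all searched on both strands.

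The deposited values were read as log2, and all differences below are in log2 on that scale. Values of different lines are not compared, because the median of an array lay between 7.90 and 8.05 in LIM1215, 6.43 and 6.54 in SW48 and 6.99 and 7.08 in Caco2. A group was called near background when its mean did not reach the 95th percentile over negative control probes, which was 7.14 to 8.05 in LIM1215, 6.57 to 7.24 in SW48 and 7.5 to 8.19 in Caco2. Folds against such a group are given as "at least", and no fold is given between groups that are both near background. LIM1215 parental replicate 3 stood apart from its group, with a correlation of 0.987 to each of the other parental arrays and an IFIT1 value (an interferon-induced gene) of 13.16, against 6.17 and 6.82. NK cell markers moved with the resistant state: of 17 measured, 10 were above background in resistant LIM1215, 2 in resistant SW48 (GZMA and NCAM1) and 7 in resistant Caco2, against 0, 1 and 0 in both the withdrawal and the parental cells of these lines. The 1 in withdrawal and parental SW48 was PTPRC, which was near background in resistant SW48. The summed log2 values of the 17 markers ran from 128.6 to 133.8 in resistant LIM1215, against 68.65 to 71.04 in parental LIM1215; from 74.89 to 82.88 in resistant SW48, against 54.21 to 56.82 in parental SW48; and from 106.7 to 112.4 in resistant Caco2, against 56.33 to 60.08 in parental Caco2. The part of NK cell RNA in the differences that involve resistant cells was not tested. Of 10 colorectal epithelial markers, 10 were above background in every state of LIM1215, 6 in every state of SW48 and 7 in every state of Caco2; VIL1, CDX1, LGALS4 and GPA33 were near background in SW48. KIT, the defining marker of Cajal cells, was near background in all 9 groups.

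TNS4 was lower in resistant than in withdrawal and parental LIM1215, was above background in SW48 only in the resistant cells, and was near background in every state of Caco2. In LIM1215 its values were 14.46, 14.47 and 14.68 in withdrawal cells, 12.07, 12.05 and 11.58 in resistant cells, and 14, 13.96 and 14.66 in parental cells. The resistant arrays lay below all others, and withdrawal and parental arrays overlapped. The difference of resistant from parental cells was -2.31 (SE 0.23), a 4.95-fold lower level. Withdrawal minus resistant was 2.63 (SE 0.23, 6.21-fold, adjusted p = 9.26e-09 by limma), and withdrawal minus parental was 0.33 (95% interval -0.15 to 0.8, adjusted p = 0.367). The withdrawal contrasts share the resistant or the parental arrays with the contrast that chose the genes, here and for TM4SF1 and ANO1.

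In SW48 the TNS4 values were 6.09, 5.80 and 6.55 in withdrawal cells, 11.95, 11.86 and 11.64 in resistant cells, and 3.71, 3.76 and 3.37 in parental cells. The 3 states did not overlap, and only the resistant cells were above background. Resistant cells differed from parental cells by 8.20 (SE 0.23), at least 34.1-fold higher. TNS4 fell by 5.67 in withdrawal cells relative to resistant cells (SE 0.23, at least 30.5-fold, adjusted p = 1.37e-14 by limma). Withdrawal minus parental was 2.53 (SE 0.23, adjusted p = 2.81e-07 by limma), but both groups were near background: with values under background set to background it was 0.16 (adjusted p = 0.53). In Caco2, TNS4 had 5.11, 4.62 and 4.62 in withdrawal cells, 5.93, 6.33 and 5.63 in resistant cells, and 5.13, 4.42 and 4.80 in parental cells, all near background. The resistant arrays lay above the others there, and withdrawal minus resistant was -1.19 (adjusted p = 0.000366 by limma), which became 0.11 (adjusted p = 0.68) once values under background were set to background. Withdrawal minus parental was 0 (95% interval -0.48 to 0.47).

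**Figure D1:**
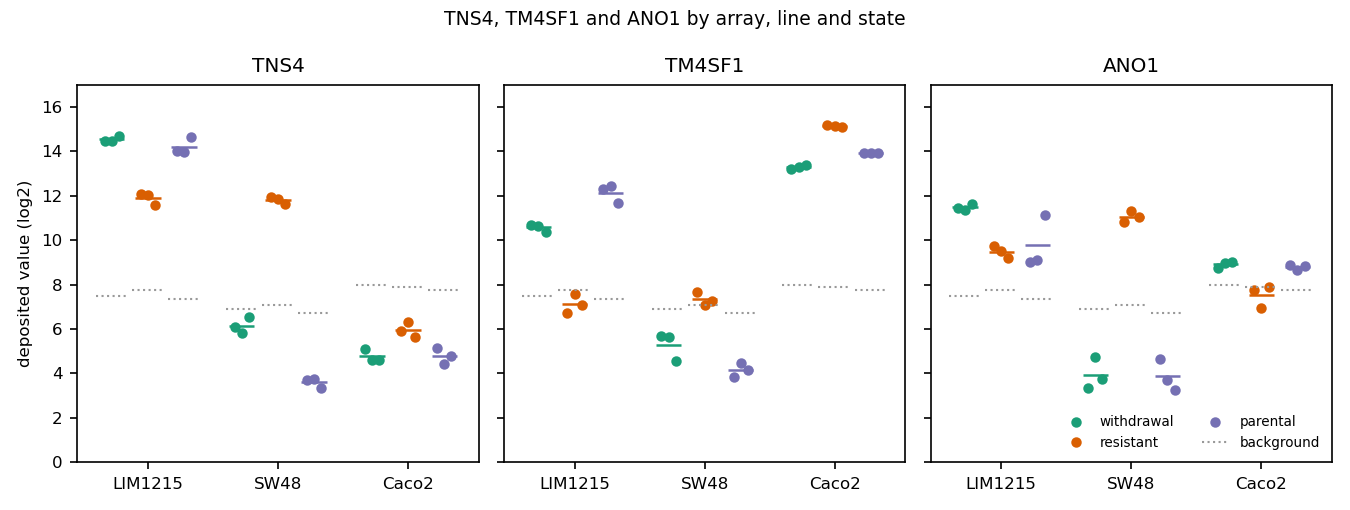
Deposited log2 values of TNS4, TM4SF1 and ANO1 on each of the 27 arrays, by line and by state (withdrawal, resistant, parental); each point is an array, solid lines are group means and dotted lines the mean background of the group. TNS4 and ANO1 stood above 10 in SW48 only in the resistant cells, and TM4SF1 in LIM1215 fell between 6.74 and 7.59 in the resistant cells, below the withdrawal and parental arrays.

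TM4SF1 was near background in resistant LIM1215 and well above it in the other states of that line, and in Caco2 it was above background throughout and higher in resistant cells. In LIM1215 it had 10.70, 10.63 and 10.38 in withdrawal cells, 6.74, 7.59 and 7.10 in resistant cells, and 12.31, 12.45 and 11.65 in parental cells. The 3 states did not overlap, and the resistant cells were near background. Resistant minus parental was -5 (SE 0.255), at least 21-fold lower. After withdrawal TM4SF1 rose by 3.43 relative to resistant cells (SE 0.255, at least 7.09-fold, adjusted p = 7.17e-10 by limma) and was still below parental cells by a difference of -1.57 (SE 0.255, 2.96-fold, adjusted p = 0.000136).

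In SW48, TM4SF1 had 5.70, 5.62 and 4.58 in withdrawal cells, 7.66, 7.09 and 7.25 in resistant cells, and 3.85, 4.49 and 4.15 in parental cells. Only 2 of the 3 resistant arrays were above background, and no withdrawal or parental array was. The difference of resistant from parental cells was 3.17 (SE 0.255), at least 1.53-fold higher. Withdrawal minus resistant was -2.03 (at least 1.37-fold, adjusted p = 2.11e-06 by limma) and withdrawal minus parental was 1.14 (adjusted p = 0.011) between 2 groups that were both near background. With values under background set to background the first became -0.48 (adjusted p = 0.109) and the second 0.16 (adjusted p = 0.539). Leaving out 1 SW48 array gave 0.93 to 1.5 for withdrawal minus parental, with an adjusted p of up to 0.0714.

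In Caco2, TM4SF1 had 13.22, 13.31 and 13.39 in withdrawal cells, 15.17, 15.14 and 15.08 in resistant cells, and 13.90, 13.91 and 13.90 in parental cells. The 3 states did not overlap, and the arrays of a state were close together (SD 0.09 in withdrawal, 0.05 in resistant and 0.01 in parental cells). Resistant cells differed from parental cells by 1.23 (SE 0.255), a 2.34-fold higher level. TM4SF1 fell by 1.83 in withdrawal cells relative to resistant cells (SE 0.255, 3.55-fold, adjusted p = 6.77e-06 by limma). Withdrawal minus parental was -0.60 (95% interval -1.13 to -0.07, adjusted p = 0.242); all 3 withdrawal arrays lay below all 3 parental arrays, as the groups of 23.4% of all genes did not overlap in this comparison. Fitted to the Caco2 arrays alone, where the spread of other lines has no part, the same -0.60 had an adjusted p of 0.0122.

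ANO1 was above background in SW48 only in the resistant cells, and in LIM1215 it was higher in withdrawal cells than in both other states. In SW48 its values were 3.33, 4.74 and 3.74 in withdrawal cells, 10.83, 11.31 and 11.03 in resistant cells, and 4.64, 3.69 and 3.27 in parental cells. Only the resistant cells were above background, and withdrawal and parental arrays overlapped. Resistant minus parental was 7.19 (SE 0.425), at least 20.2-fold higher. ANO1 fell by 7.12 in withdrawal cells relative to resistant cells (SE 0.425, at least 18-fold, adjusted p = 1.25e-11 by limma), and withdrawal minus parental was 0.07 (95% interval -0.81 to 0.95).

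In LIM1215, ANO1 had 11.46, 11.37 and 11.61 in withdrawal cells, 9.75, 9.51 and 9.20 in resistant cells, and 9.03, 9.11 and 11.15 in parental cells. Parental replicate 3 lay 2.08 above the mean of the other parental arrays and 0.33 below the withdrawal mean, and gave this group an SD of 1.2. The difference of resistant from parental cells was -0.28 (SE 0.425) with it and 0.41 (SE 0.349) without it, so its direction rested on that array. ANO1 rose after withdrawal, by 2.00 relative to resistant cells (3.99-fold, adjusted p = 0.000939 by limma) and by 1.72 relative to parental cells (3.29-fold, adjusted p = 0.00537). Without parental replicate 3 the difference from parental cells was 2.41 (adjusted p = 1.45e-05), and without parental replicate 1 it was 1.35 (adjusted p = 0.0523). For TNS4 the same array also lay nearer the withdrawal mean (0.12) than the other parental arrays (0.68), and for TM4SF1 it lay 1.08 from the withdrawal mean and 0.73 from the other parental arrays.

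In Caco2, ANO1 had 8.76, 8.96 and 9 in withdrawal cells, 7.77, 6.95 and 7.89 in resistant cells, and 8.88, 8.67 and 8.83 in parental cells. The resistant arrays lay below the others, and 1 of them was above background. Resistant cells differed from parental cells by -1.26 (SE 0.425), at least 1.84-fold lower. Withdrawal minus resistant was 1.37 (at least 1.99-fold, adjusted p = 0.0193 by limma). Its adjusted p rose to as much as 0.113 when an array was left out. The call was lost without resistant replicate 2, withdrawal replicate 2 or withdrawal replicate 3. Withdrawal minus parental was 0.11 (95% interval -0.77 to 0.99).

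**Figure D2:**
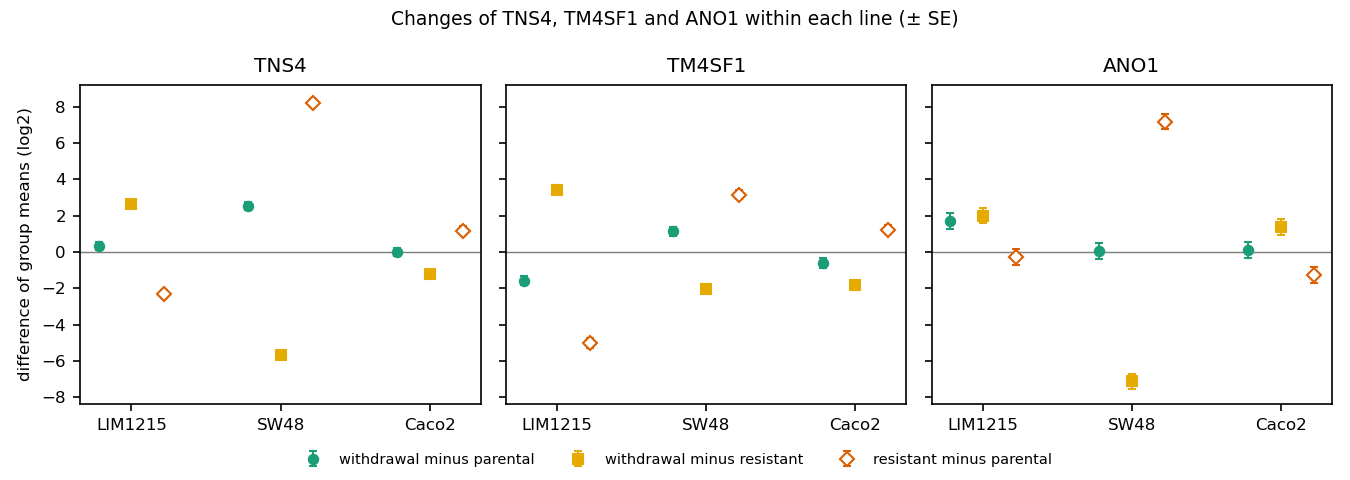
Differences of group means in log2 with SE bars for withdrawal minus parental (circles), withdrawal minus resistant (squares) and resistant minus parental (open diamonds, the contrast that chose the genes) in each line, with 3 arrays a group. TNS4 and ANO1 had resistant minus parental differences of 8.20 and 7.19 in SW48, and TM4SF1 had -5 in LIM1215, each against a group near background.

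Against resistant cells, withdrawal cells passed limma's test for all 3 genes in every line: 3 were higher in LIM1215, 3 lower in SW48, and 1 higher and 2 lower in Caco2. The TNS4 call in Caco2 lay between groups both near background, and the TM4SF1 call in SW48 against a withdrawal group near background. Neither of these passed with values under background set to background. Over all genes, 13.6% were called higher and 14.4% lower in LIM1215, 11.1% higher and 11.1% lower in SW48, and 12.1% higher and 12.5% lower in Caco2. These contrasts share the resistant arrays that chose the genes, so their directions are not independent of the choice. Against parental cells, 1 was higher (ANO1) and 1 lower (TM4SF1) in withdrawal LIM1215, where 9.89% and 11.2% of all genes were called. In withdrawal SW48, 2 were higher (TNS4 and TM4SF1, both near background), where 1.78% of all genes were called higher and 2.3% lower. In withdrawal Caco2, limma called 0 of the 3, where 5.28% of all genes were called in either direction at an adjusted p under 0.05. At an unadjusted p under 0.05, TM4SF1 alone passed there.

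The arrays of withdrawal and resistant cells did not overlap for any of the 3 genes in any line, as for 46% of all genes in LIM1215, 35.5% in SW48 and 38.9% in Caco2. Withdrawal and parental arrays did not overlap for 2 of the 3 in LIM1215 (31.6% of all genes), 2 in SW48 (22.1%) and 1 in Caco2 (23.4%). Resistant and parental arrays, which chose the genes, did not overlap for 2 of the 3 in LIM1215 (23.7% of all genes), 3 in SW48 (35.5%) and 3 in Caco2 (39.9%).

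Differences between the lines were tested for withdrawal minus parental, with 9 differences over the 3 genes. TNS4 differed by -2.21 between LIM1215 and SW48 (SE 0.325, adjusted p = 0.000112 by limma) and by 2.54 between SW48 and Caco2 (SE 0.325, adjusted p = 2.94e-05). The first rests on SW48 values near background and the second on SW48 and Caco2 values near background, and they became 0.17 (adjusted p = 0.9) and -0.07 (adjusted p = 0.881) with values under background set to background. TM4SF1 differed by -2.70 between LIM1215 and SW48 (SE 0.361, adjusted p = 4.47e-05), with a lower value than parental in withdrawal LIM1215 and a higher one in withdrawal SW48, there near background. With values under background set to background it was -1.73 (adjusted p = 0.000137). Its difference of 1.73 between SW48 and Caco2 (SE 0.361, adjusted p = 0.00513) became 0.76 (adjusted p = 0.169) under the same setting. Over all genes, 13.3% were called between LIM1215 and SW48, 13.4% between LIM1215 and Caco2 and 5.31% between SW48 and Caco2.

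For ANO1, the difference in withdrawal minus parental was 1.65 between LIM1215 and SW48 (SE 0.6, adjusted p = 0.0734), 1.60 between LIM1215 and Caco2 (adjusted p = 0.0833) and -0.04 between SW48 and Caco2 (95% interval -1.29 to 1.2). Without LIM1215 parental replicate 3 the first was 2.34 (adjusted p = 0.000855) and the second 2.30 (adjusted p = 0.000946), both by limma. For TM4SF1, LIM1215 minus Caco2 was -0.97 (adjusted p = 0.0818), and -1.21 without that array (adjusted p = 0.0162). TNS4 differed by 0.33 between LIM1215 and Caco2 (95% interval -0.34 to 1).

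The 3 genes ran together in SW48, and in Caco2 ANO1 ran opposite to TNS4 and TM4SF1. Over the 9 arrays of SW48, Pearson's r was 0.953 for TNS4 with TM4SF1, 0.943 for TNS4 with ANO1 and 0.889 for TM4SF1 with ANO1. In Caco2 it was 0.844, -0.921 and -0.893 for the same pairs, and in LIM1215 0.868, 0.665 and 0.22. The 9 arrays of a line share 3 states, so these values mostly restate the state means, and TNS4 in Caco2 was near background throughout. In SW48 all 3 genes were near background in withdrawal and parental cells, and TM4SF1 was above it on only 2 resistant arrays. The SW48 values of r thus rest on the resistant state, which also chose the genes.

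The genes most like each member were sought over the 27 arrays, after taking away each line's mean, among 10499 genes above background in at least 1 group. The arrays share lines, states and the members' own extremes, and r is a description. For TNS4 they were MYADM (r = 0.964), LCN2 (0.953), IGFBP4 (0.934), EPS8L2 (0.929) and ILK (0.929), and the most opposite were MPP7 (-0.945) and H4C4 (-0.942). LCN2, the iron-binding secreted lipocalin, had resistant minus parental of 4.35 in SW48, -1.05 in LIM1215 and 0.04 in Caco2. ILK, a scaffold of focal adhesions that binds integrin tails, had 1.19, -0.22 and 0.22. In SW48 alone, the nearest were the tetraspanin TSPAN1 (0.9928), the protease KLK6 (0.9924) and the glycosyltransferase B3GNT2 (0.9919).

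For TM4SF1 the nearest genes were TESC (r = 0.89), TIMP3 (0.881), KLK10 (0.866), DKK1 (0.858) and TIMP1 (0.85), and the most opposite SMAD9 (-0.865) and ANKRD50 (-0.86). TIMP1 and TIMP3 inhibit matrix metalloproteinases, and DKK1 is a secreted inhibitor of Wnt signalling. Resistant minus parental was -4.40 for DKK1 and -3.49 for TIMP1 in LIM1215, 0.42 and 0.84 in SW48, and 0.70 and 2.56 in Caco2. TESC and TIMP3 also had the sign of TM4SF1 in each line. KLK10 had -4.95, 2.05 and -0.47 in the same order, the last opposite in sign to TM4SF1. In LIM1215 alone the nearest were the KIT ligand KITLG (0.9924), DKK1 (0.9918) and BMP4 (0.9877). KITLG had resistant minus parental of -0.58 in SW48 and -2.45 in Caco2, opposite in sign to TM4SF1. BMP4 had 0.07 and -0.49.

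For ANO1 the nearest were MED13L (r = 0.955), RAB20 (0.945), EIF2A (0.944), NAPG (0.932) and IQGAP1 (0.93), and the most opposite GLMP (-0.966) and LGR5 (-0.957). LGR5, the receptor that marks intestinal stem cells, had resistant minus parental of -4.06 in SW48, -0.50 in LIM1215 and 0.28 in Caco2, and withdrawal minus parental of -0.39, -1.52 and 0.05. In SW48 alone the nearest were PAQR5 (0.9947), FHL2 (0.9929) and NAPG (0.9926). Without LIM1215 parental replicate 3, 5 of the nearest 5 remained for TNS4, 4 for TM4SF1 and 4 for ANO1.

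**Figure D3:**
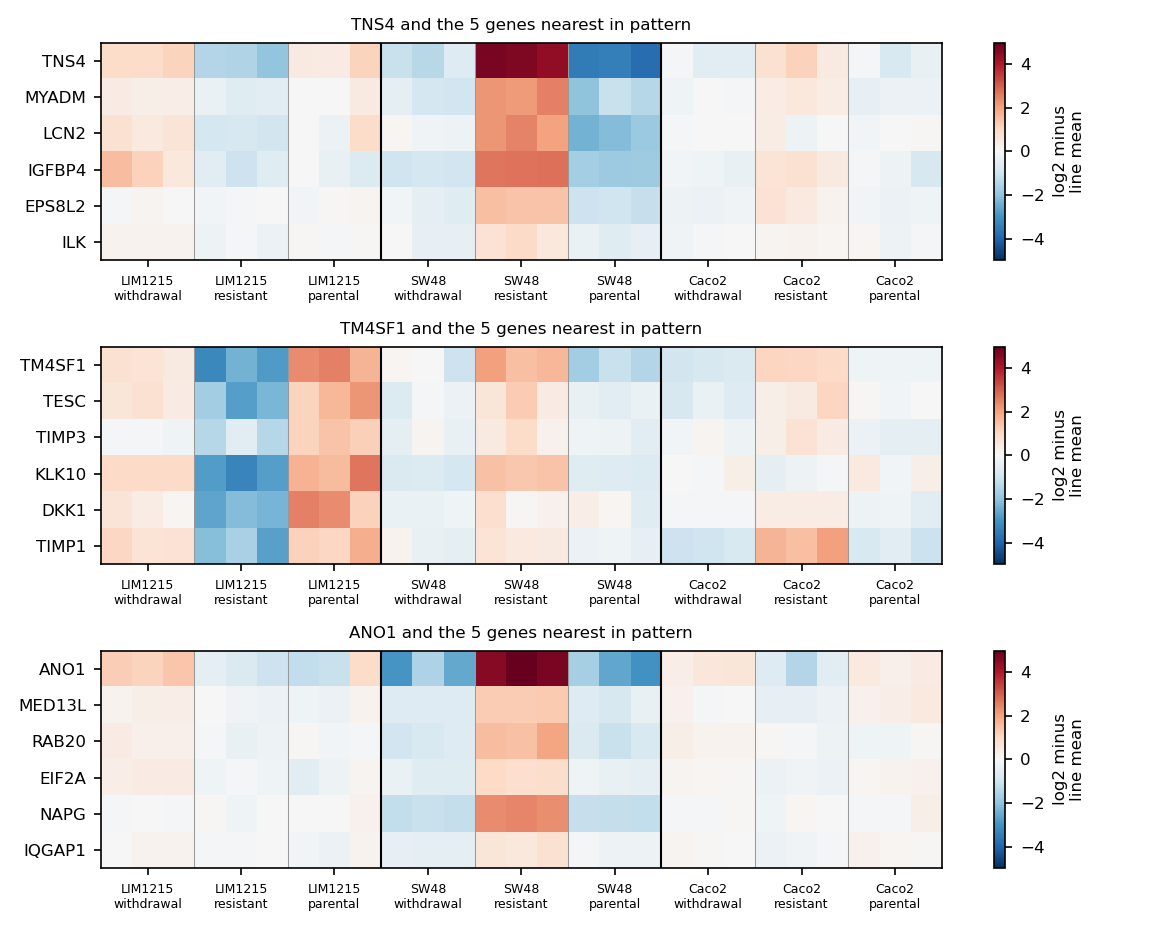
Heat maps of log2 values minus the mean of their line (colour scale at the right, red above and blue below) for TNS4, TM4SF1 and ANO1, in the top row of each panel, and the 5 genes most like each; columns are the 27 arrays by line and state. The 5 correlations ran from 0.929 to 0.964 for TNS4, 0.85 to 0.89 for TM4SF1 and 0.93 to 0.955 for ANO1.

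Chromosome neighbours were compared to see whether the 3 genes moved with the genes beside them, taking the 4 measured genes on each side in RefSeq order. Beside TNS4, whose near neighbours are IGFBP4 and CCR7, resistant SW48 had 3 of 8 higher (IGFBP4, TOP2A and CCR7, the last near background) and 1 lower, where 10.9% and 11.8% of all genes were called. IGFBP4, which binds insulin-like growth factors, rose by 4.47 in resistant SW48 relative to parental SW48 (SE 0.214, adjusted p = 2.37e-13 by limma) and by 1.01 in resistant Caco2 (adjusted p = 0.000826). It was near background in parental and resistant LIM1215, where TNS4 was lower in resistant cells. TOP2A, on the other side of IGFBP4, rose by 0.47 in resistant SW48 (adjusted p = 0.00162), and SMARCE1 had -0.66 (adjusted p = 6.13e-05).

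Beside TM4SF1 lie its L6 relatives TM4SF18 and TM4SF4 and WWTR1 (TAZ), a relative of YAP. Of the 8 neighbours, 0 were called higher and 1 lower in resistant LIM1215, where 5.42% and 5.39% of all genes were called. In resistant SW48, 1 was higher and 1 lower (10.9% and 11.8% of all genes), and in resistant Caco2, 2 and 1 (12.9% and 14.5%). Against the sign of TM4SF1 went COMMD2 in resistant SW48 (-0.5, adjusted p = 0.00956 by limma) and HLTF in resistant Caco2 (-0.69, adjusted p = 0.000998). TM4SF18 and TM4SF1-AS1 were near background in all 9 groups. TM4SF4 rose by 3.99 in resistant Caco2 relative to parental Caco2 (SE 0.176, at least 2.8-fold, adjusted p = 3.95e-14 by limma) and was near background in the other lines. In resistant minus parental WWTR1 had the sign of TM4SF1 in each line, with -0.86 in LIM1215 (adjusted p = 0.00326 by limma), 4 in SW48 (at least 3.34-fold, adjusted p = 2.05e-13) and 1.26 in Caco2 (adjusted p = 1.69e-05). After withdrawal WWTR1 was 1.16 lower than in parental LIM1215 (difference -1.16, adjusted p = 0.000146), and TM4SF1 was lower there too. Relative to resistant LIM1215, withdrawal cells had a WWTR1 difference of -0.3 (adjusted p = 0.267 by limma), whereas TM4SF1 rose by 3.43.

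Beside ANO1, 0 of 8 neighbours were called higher in resistant SW48 and 1 lower (LTO1, -0.84, adjusted p = 0.000424 by limma). Over all genes, 10.9% were called higher and 11.8% lower there. In 4 of the 8 neighbours both groups were near background. ANO1 itself was at least 20.2-fold higher. FADD, the death-receptor adaptor next to it, had 0.06 (adjusted p = 0.898), PPFIA1 had 0.17 (adjusted p = 0.61) and CTTN, the actin regulator cortactin, had -0.06 (adjusted p = 0.805). FGF19, FGF4 and FGF3, on the other side, and SHANK2 were the neighbours near background.

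**Figure D4:**
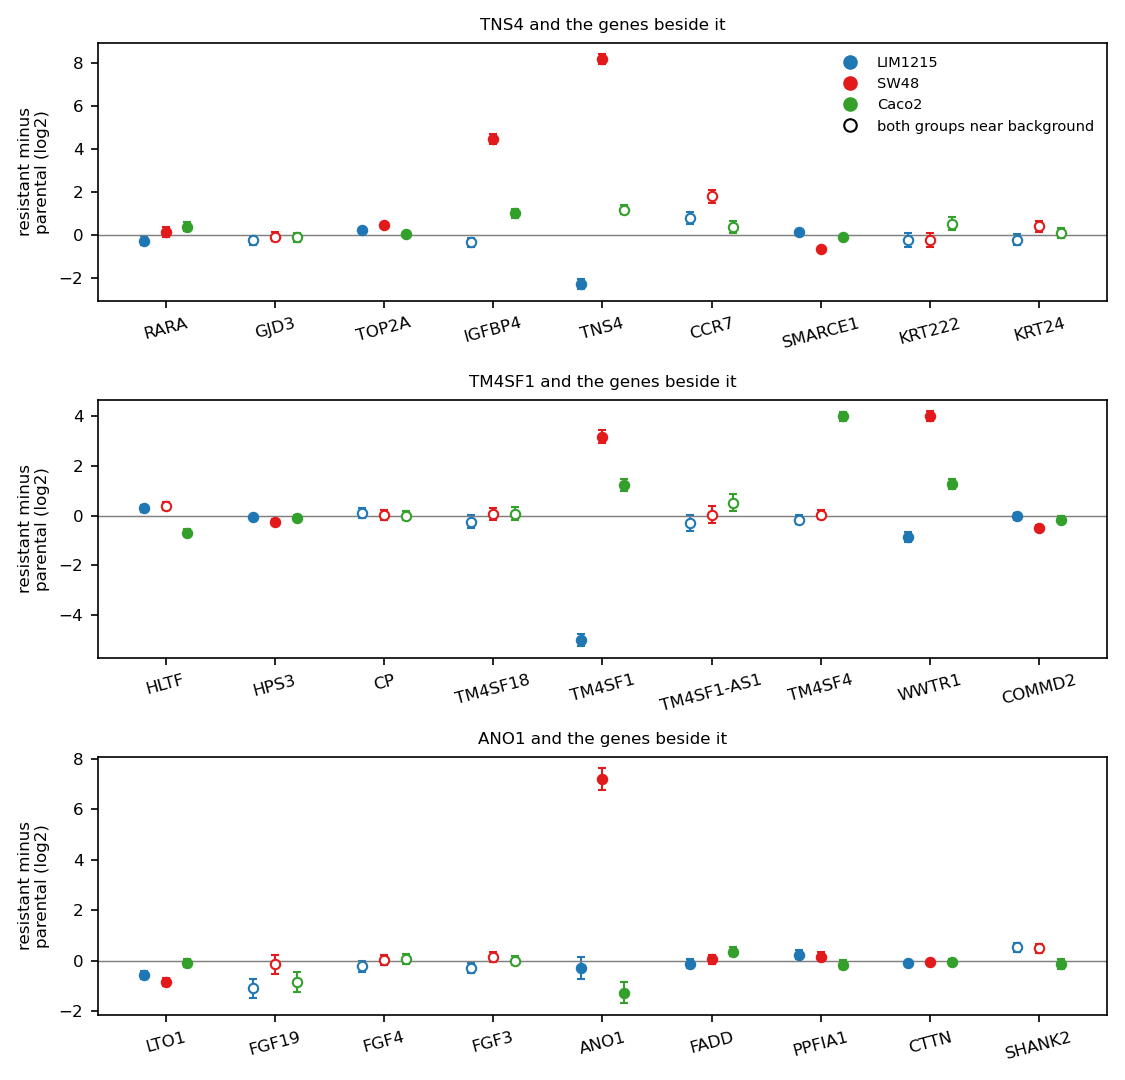
Resistant minus parental in log2 for TNS4, TM4SF1, ANO1 and the 4 measured genes on each side, in chromosome order and not to scale, by line, with SE bars; open points have both groups near background. IGFBP4 beside TNS4 (4.47) and WWTR1 near TM4SF1 (4) stood out in SW48, and no neighbour of ANO1 was called higher there.

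Other focal adhesion genes were read for the place of TNS4, with 23 of 26 listed genes measured; TNS1, TLN1 and FLNA were not analysed here. In resistant SW48, 9 rose and 3 fell relative to parental cells (median 0.0941, against -0.00206 over all genes), where 10.9% of all genes were called higher and 11.8% lower. TGFB1I1, a relative of paxillin, rose by 2.30 (4.91-fold), PXN, paxillin itself, by 1.32 (2.5-fold) and ILK by 1.19 (2.28-fold), while the tensin TNS3 fell by 1.22 (2.33-fold). In resistant LIM1215, 1 rose and 4 fell, where 5.42% and 5.39% of all genes were called; the actin linker VCL, vinculin, fell by 0.63 (1.55-fold). In resistant Caco2, 3 rose and 5 fell, where 12.9% and 14.5% of all genes were called; ZYX fell by 0.60 and BCAR1 rose by 0.62. In withdrawal LIM1215, 3 rose and 3 fell relative to parental cells, where 9.89% and 11.2% of all genes were called; among them TES rose by 1.32 (2.49-fold), and without parental replicate 3 the count called was 10 in place of 6. In withdrawal SW48, 3 rose and 1 fell, where 1.78% of all genes were called higher and 2.3% lower, and in withdrawal Caco2, 0 rose and 1 fell, where 2.73% and 2.54% were called.

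Among the 21 other genes of the L6 family and the tetraspanins, 6 rose and 3 fell in resistant SW48, 2 rose and 4 fell in resistant LIM1215, and 4 rose and 8 fell in resistant Caco2. Over all genes, 10.9% were called higher and 11.8% lower in resistant SW48, 5.42% and 5.39% in resistant LIM1215, and 12.9% and 14.5% in resistant Caco2. TSPAN1 rose by 4.16 in resistant SW48 relative to parental SW48 (17.9-fold) and was still 1.36 higher after withdrawal (2.57-fold). CD82, a tetraspanin known as a suppressor of metastasis, rose by 1.74 in resistant SW48 (3.35-fold). TM4SF5, another L6 protein, fell by 1.45 in resistant LIM1215 (at least 2.37-fold) and rose by 2.88 in resistant Caco2 (at least 6.4-fold). TM4SF5 and TM4SF4 thus rose in Caco2, where TM4SF1 was also higher, while TSPAN6 fell by 1.44 there.

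Among 21 genes of anoctamins and epithelial chloride transport, 3 rose and 0 fell in resistant LIM1215, 4 rose and 3 fell in resistant SW48, and 4 rose and 2 fell in resistant Caco2. The shares called higher and lower over all genes were 5.42% and 5.39%, 10.9% and 11.8%, and 12.9% and 14.5% in the same order. Only 10, 7 and 8 of the 21 genes were above background in resistant or parental cells of these lines. The counts may thus include calls between groups both near background. In resistant SW48, where ANO1 was higher, the chloride channel BEST1 fell by 3.00 (at least 2.3-fold), KCNE3, a potassium channel subunit of secreting cells, fell by 2.22 (4.67-fold), and the chloride importer SLC12A2 fell by 1.24 (2.37-fold). The sodium pump subunit ATP1B1 rose by 1.70 there (3.24-fold). In resistant Caco2, P2RY2, a receptor for extracellular ATP that raises calcium, rose by 1.88 (3.69-fold), while the chloride channel CFTR fell by 1.30 (2.46-fold). In withdrawal LIM1215, where ANO1 was highest, 3 rose and 3 fell relative to parental cells, where 9.89% and 11.2% of all genes were called. BEST1 rose by 3.1 there (at least 1.25-fold, with parental cells near background) and KCNE3 by 1.52 (2.87-fold).

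Of 15 genes of EGFR signalling and ERK output, 0 rose and 11 fell in resistant LIM1215 (median -1.55, against -0.0277 over all genes), 3 rose and 4 fell in resistant SW48, and 4 rose and 9 fell in resistant Caco2. Set against these stand 5.42% of all genes called higher and 5.39% lower in LIM1215, 10.9% and 11.8% in SW48, and 12.9% and 14.5% in Caco2. The ERK targets PHLDA1, FOSL1 and DUSP4 fell by 3.2, 2.75 and 2.72 in resistant LIM1215, the line in which TNS4 was lower. In withdrawal LIM1215, 8 rose and 0 fell relative to parental cells (median 0.561), where 9.89% and 11.2% of all genes were called, with ETV5 higher by 3.01 (8.03-fold) and EPHA2 by 1.2 (2.3-fold). In resistant SW48, where TNS4 was at least 34.1-fold higher, the named genes of this list went both ways. DUSP5 rose by 2.29 (at least 3.6-fold) and SPRY4 by 1, while EGFR itself fell by 2.26 (4.8-fold) and ETV5 by 1.7.

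Of 16 genes of the YAP and TEAD programme, 6 rose and 2 fell in resistant SW48, 1 rose and 4 fell in resistant LIM1215, and 3 rose and 7 fell in resistant Caco2; AMOTL2 was not analysed here. All genes were called higher and lower at 10.9% and 11.8% in SW48, 5.42% and 5.39% in LIM1215, and 12.9% and 14.5% in Caco2. The secreted matrix protein CCN1, a standard YAP target, rose in the resistant cells of all 3 lines, by 3.57 in SW48 (11.9-fold), 1.84 in LIM1215 (3.59-fold) and 1.16 in Caco2 (2.23-fold). CRIM1 and the receptor kinase AXL rose by 1.89 (3.7-fold) and 2.22 (4.67-fold) in resistant SW48, and F3, tissue factor, fell by 1.47 (2.78-fold) in resistant LIM1215. TEAD2, among the 7 that fell in resistant Caco2, had a difference of -2.34 (at least 1.73-fold). In withdrawal SW48, CCN1 was still 1.55 higher than in parental cells (2.93-fold). All calls on list genes are at an adjusted p under 0.05 by limma over all 17687 genes, whether or not a group was above background. Above it in resistant or parental LIM1215, SW48 and Caco2 were 19, 18 and 20 of the 23 focal adhesion genes. For the 21 L6 and tetraspanin genes these counts were 16, 15 and 13. They were 15, 15 and 13 for the 15 EGFR and ERK genes, and 13, 10 and 16 for the 16 YAP and TEAD genes.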

How the data were processed

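Total RNA (250 ng) from cell pellets was read on single-colour whole-transcript arrays, per the labels' protocols. The authors deposited log2 values, 1 per probe set and array; the base was read from their range. Neither labels nor table name the software, background correction or normalization. Precision is limited by the 3 arrays of a group. Of 21448 transcript probe sets, 17709 matched a single symbol and 3739 were not in the naming table; 20 genes had more than 1 probe set and were read from the brightest, leaving 17687 genes. A mean per group was fitted to the 27 arrays with limma 3.58.1 in R 4.3.3 (18 residual and 4.12 prior degrees of freedom), two-sided, with Benjamini-Hochberg adjustment within each contrast and a threshold of 0.05. No gene was dropped. The steps were tested on simulated data.

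Genes named are TNS4, TM4SF1 and ANO1; from each list and line up to 4 called genes with the largest non-overlapping change in resistant cells and up to 2 in withdrawal cells; the nearest genes by correlation; and 4 chromosome neighbours on each side. IFIT1 was singled out after its values were seen. Members and lists were chosen with earlier results of these data known. Replicate numbers did not pair the arrays (correlations of deviations -0.0407 to 0.0749, none over 0.1). Alternatives were quantile normalization, a filter on dim genes, trended robust variance, all transcript probe sets, 1 line at a time, a replicate block, leaving out each array, and, chosen after seeing the data, values under background set to background. Sequences are RefSeq's, GRCh38.p14. Python 3.11.15 and matplotlib 3.10.9 drew the figures.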

Additional observations from a re-analysis of the deposited data

Results flagged for a closer look

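The change between withdrawal and parental cells differed between lines by limma's test of the difference itself for 4 results. For TNS4 the difference was -2.21 for LIM1215 minus SW48 (SE 0.325, adjusted p = 0.000112) and 2.54 for SW48 minus Caco2 (SE 0.325, adjusted p = 2.94e-05). For TM4SF1 it was -2.70 for LIM1215 minus SW48 (SE 0.361, adjusted p = 4.47e-05) and 1.73 for SW48 minus Caco2 (SE 0.361, adjusted p = 0.00513). In all 4 the SW48 arrays of both states were near background; TM4SF1 in LIM1215 (10.57 in withdrawal and 12.14 in parental cells) and in Caco2 (13.31 and 13.90) was above it.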

How the results depend on the processing

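Of 648 values of TNS4, TM4SF1 and ANO1 under other settings, 614 kept their call or, where there was no test, moved by less than the spread between replicates. Among them, differences that did not pass could change sign, such as ANO1 withdrawal minus parental in SW48 (-0.33 to 0.45 when 1 array was left out). Resistant minus parental had no test, and only its value was compared. The filter on dim genes, trended robust variance, all transcript probe sets and the replicate block cannot move that value. Nor can fitting 1 line at a time or leaving out a withdrawal array. Such values are counted among the 614 by construction, so that count overstates how far they were put to the test. With values under background set to background (chosen after seeing the data), TNS4 resistant minus parental was 5.09 in SW48 and 0.13 in Caco2, withdrawal minus parental in SW48 was 0.16, withdrawal minus resistant in Caco2 turned to 0.11, and the line differences turned to 0.17 (LIM1215 minus SW48) and -0.07 (SW48 minus Caco2). TM4SF1 was then -4.39 (LIM1215 resistant minus parental), 0.64, 0.16 and -0.48 (SW48 resistant minus parental, withdrawal minus parental and withdrawal minus resistant), and its line differences were -0.97 (LIM1215 minus Caco2, now past the threshold, adjusted p = 0.0247) and 0.76 (SW48 minus Caco2). ANO1 was 4.33 in SW48 and -0.88 in Caco2 (resistant minus parental), and its line differences of 1.56 (LIM1215 minus SW48) and 1.60 (LIM1215 minus Caco2) passed. Genes called then numbered 3147 (Caco2 resistant minus parental), 524 and 2742 (Caco2 withdrawal minus parental and minus resistant) and 611 (SW48 minus Caco2), against 4842, 933, 4364 and 939; FOSL1 in Caco2 turned to 0.11. With the arrays of 1 line only, withdrawal minus parental missed the threshold for TM4SF1 in SW48 (1.14, adjusted p = 0.0894) and ANO1 in LIM1215 (1.72, adjusted p = 0.052) and passed for TM4SF1 in Caco2 (-0.60), and calls numbered 1230 and 2227 (LIM1215 resistant and withdrawal minus parental) and 380 (SW48 withdrawal minus parental), against 1913, 3724 and 722. Trended robust variance brought the TM4SF1 difference of -0.97 past the threshold (adjusted p = 0.0484), and a filter on dim genes the ANO1 difference of 1.65 (adjusted p = 0.0483).

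Leaving out 1 array gave, for withdrawal minus parental, 0.93 to 1.5 (TM4SF1, SW48) and 1.35 to 2.41 (ANO1, LIM1215), for withdrawal minus resistant 1.08 to 1.55 (ANO1, Caco2), for resistant minus parental -0.65 to 0.41 (ANO1, LIM1215), and for line differences -1.21 to -0.81 (TM4SF1, LIM1215 minus Caco2), 1.26 to 2.34 and 1.24 to 2.30 (ANO1, LIM1215 minus SW48 and minus Caco2). Calls ranged from 2260 to 5019 (LIM1215 withdrawal minus parental), 448 to 736 (SW48 withdrawal minus parental), 1547 to 3863 and 1604 to 3960 (LIM1215 minus SW48 and minus Caco2 in withdrawal minus parental). Without LIM1215 parental replicate 3, 10 focal adhesion genes were called in withdrawal minus parental of LIM1215, against 6. Among list genes 114 of 1280 values fell short of the threshold. The replicate block, for arrays that share only a number, changed no call on the 3 genes; ANO1 withdrawal minus parental in LIM1215 was 1.72 (adjusted p = 0.00993). Causes were not tested. Signal near background limits TNS4 in Caco2 and all 3 genes in parental and withdrawal SW48.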
